A study of Mus musculus with 12 samples.

Results

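The comparison described here asks what mouse fibroblasts have in common when they lack FADD or lack caspase-8. It uses all 12 of the study's 12 RNA sequencing libraries, chosen by genotype and vector alone: 6 libraries of cells without the protein are set against 6 libraries of the same cells with it put back, with the cell line as a block. The cells are immortalised mouse embryonic fibroblasts, and each of the 4 groups has 3 cultures, called independent in the labels. Fadd-/-Mlkl-/- cells carrying an empty vector (Fadd/Mlkl KO) are compared with the same cells re-expressing FADD (Fadd restored). Casp8-/-Mlkl-/- cells carrying an empty vector (Casp8/Mlkl KO) are compared with the same cells re-expressing Caspase-8 (Casp8 restored). The Fadd line and the Casp8 line below are these 2 pairs of groups. All 12 cultures therefore lack Mlkl, express SV40 large T antigen, were left untreated and were harvested 24 h after plating. The labels do not say whether the cells of a genotype stem from 1 embryo or clone, so p-values measure the spread between these cultures.

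FADD is an adaptor that binds ligand-activated death receptors and recruits caspase-8, a protease that starts apoptosis and cleaves the kinases RIPK1 and RIPK3. When that cleavage fails, RIPK3 can activate MLKL, the protein that breaks the plasma membrane in necroptosis. ZBP1, a sensor of Z-form nucleic acids named in the study's title, is another activator of RIPK3, and its gene belongs to the large set of genes that interferons induce. Interferons act through JAK kinases and transcription factors that bind interferon-stimulated response elements in promoters of genes for antiviral proteins, nucleic acid sensors and antigen presentation.

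Levels below are CPM, the counts of a gene scaled to library size, in the order of replicates 1, 2 and 3. A change is the log2 of knockout over restored as fitted by edgeR, given with its standard error (SE). Libraries held 33918359 to 59388559 counts. The first principal component, with 53.1% of the variance, separated the lines, and on it both replicate 1 libraries of the Casp8 line (26.52 in the KO, 42.89 in the restored library) stood apart from the other 4 of that line (94.79 to 118.4). In the Fadd/Mlkl KO library of replicate 1, 81.4% of counts fell in protein-coding genes, against 85.0% to 88.8% in the other 11. Fadd (chromosome 7, 144577318 to 144582463 on mm10) had 0.176, 0.0364 and 0.0876 CPM in Fadd/Mlkl KO libraries and 26.1, 19.1 and 25.7 CPM in Fadd restored ones. Casp8 (chromosome 1, 58795374 to 58847503) had 12.4, 11.3 and 10.4 CPM in Casp8/Mlkl KO libraries and 67.6, 172 and 182 CPM in Casp8 restored ones. Both targets were thus lower in their own knockout in every library, and the replicate 1 culture of the Casp8 restored group carried the least Casp8 of its group. Restored means were above those of the other line. Fadd averaged 23.7 CPM when restored, against 10.4 CPM in Casp8/Mlkl KO and 9.65 CPM in Casp8 restored libraries. Casp8 averaged 140.6 CPM when restored, against 43.1 CPM in Fadd/Mlkl KO and 48.8 CPM in Fadd restored libraries. The part of these higher restored levels in the changes below was not tested.

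A single gene passed the test of the shared effect. By edgeR's quasi-likelihood test with the line as a block, 1 of 16396 genes was called higher at an adjusted p under 0.05 (0.0061% of those tested) and 0 were called lower (0%). At an unadjusted p under 0.05 there were 853 higher (5.2%) and 493 lower genes (3.01%). DESeq2 with the same block called 241 higher (1.47%) and 73 lower (0.445%), while limma-voom called 1. Of the DESeq2 calls, 118 of the 241 and 32 of the 73 separated knockout from restored libraries in both lines. Such separation was seen upward in 1.04% and downward in 0.488% of all genes tested. The 73 included Fadd and Casp8, each lower in its own line alone. Because the line block counts any disagreement of the lines as error, a contrast that averages the within-line changes from 4 group means was also taken. It called 28 higher (0.171%) and 61 lower genes (0.372%), but 56 of these 89 were also called for a difference between the lines, and 26 separated knockout from restored libraries in both lines in the same direction.

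Zfpm2 rose. Its product, also known as FOG2, is a zinc finger cofactor of GATA transcription factors (chromosome 15, 40655035 to 41104592). It had 61.7, 57.9 and 50.5 CPM in Fadd/Mlkl KO libraries, against 23.5, 22.8 and 24.9 CPM with Fadd restored. It had 24.3, 24.2 and 31.3 CPM in Casp8/Mlkl KO libraries, against 17.0, 11.1 and 13.0 CPM with Casp8 restored. Every knockout library lay above every restored library of its own line, but the Casp8/Mlkl KO level was about the Fadd restored level. The log2 change was 1.11 (SE 0.13, adjusted p = 0.0364), made up of 1.26 in the Fadd line and 0.95 in the Casp8 line. The call was lost with a replicate block within each line (adjusted p = 0.0911) or over all libraries (0.058), and in 10 of the 12 fits that left out 1 library, where its adjusted p ran to 0.274. It held without the Casp8/Mlkl KO or the Casp8 restored library of replicate 1, with adjusted p-values of 0.0116 and 0.0125. The 82 genes at 4 CPM or more in the stretch of chromosome 15 that holds it had medians of 0.48 in the Fadd line and 0.06 in the Casp8 line, and gene copy number there was not tested.

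**Figure D1:**
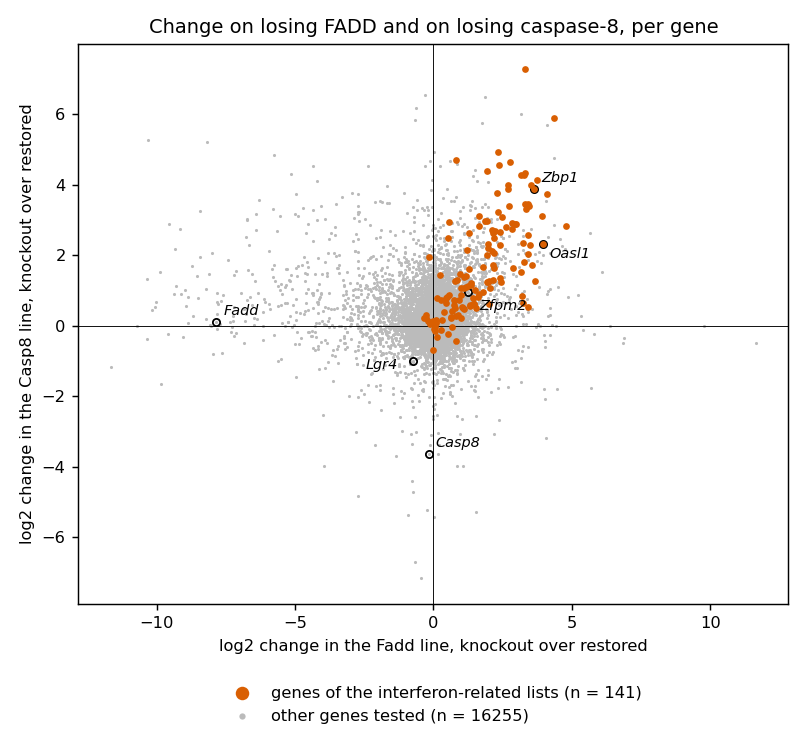
Log2 change in the Fadd line (horizontal axis) and in the Casp8 line (vertical axis), knockout over restored, for each of the 16396 genes tested; orange points are the 141 tested genes of 14 interferon-related lists and grey points the other 16255. Zfpm2 lies at 1.26 and 0.95, Zbp1 at 3.62 and 3.87, and 87.2% of the orange genes are above 0 on both axes, against 27.1% of all genes.

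Beyond Zfpm2, the genes of lowest p-value that were higher without either protein had adjusted p-values of 0.0614 and above and are given as levels. Pabpc1, the cytoplasmic poly(A)-binding protein (chromosome 15, 36595661 to 36609668), had 504, 656 and 702 CPM in Fadd/Mlkl KO libraries, against 168, 227 and 268 CPM with Fadd restored. It had 455, 646 and 577 CPM in Casp8/Mlkl KO libraries, against 280.3, 289 and 315 CPM with Casp8 restored. The groups did not overlap in either line, and the log2 change was 1.21 (SE 0.16, adjusted p = 0.0614). C1ql1 codes for a secreted C1q-like protein known as a synapse organiser. It had 4.95, 2.84 and 6.17 CPM in Fadd/Mlkl KO libraries against 0.640, 0.795 and 1.32 CPM with Fadd restored, and 0.715, 0.736 and 0.849 CPM in Casp8/Mlkl KO libraries against 0.292, 0.161 and 0.206 CPM with Casp8 restored. Its groups were also apart in both lines, with a log2 change of 2.08 (SE 0.29, adjusted p = 0.0614).

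Genes of more varied function followed at similar p-values. Chst1, a sulfotransferase of keratan sulfate synthesis, had a log2 change of 2.33 in each line alone (adjusted p = 0.0788 for both together), at levels of 0.437 to 2.55 CPM in knockout and 0.0778 to 0.412 CPM in restored libraries. Adora1, the adenosine A1 receptor, had a log2 change of 2.83 (adjusted p = 0.0788), made up of 3.32 in the Fadd line and 2.06 in the Casp8 line. Col6a4, a collagen VI chain, had a log2 change of 2.94 (adjusted p = 0.107), with the larger part in the Casp8 line (4.07 against 1.97 in the Fadd line). Its Casp8/Mlkl KO libraries had 5.23, 1.93 and 3.19 CPM, and those with Casp8 restored 0.350, 0.197 and 0.0617 CPM. None of the 3 belongs to a list drawn up for interferon or inflammation.

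The widest common pattern was in genes of the interferon response. Of the 141 tested genes in 14 interferon-related lists, 132 had a fitted change above 0, where 49.7% of all genes tested did, and 87.2% were above 0 in both lines, where 27.1% of all genes were. None of the 141 was called by edgeR. At an unadjusted p under 0.05, 110 were higher and 0 lower, against 5.2% and 3.01% of all genes tested. DESeq2 called 73 of the 141 higher, against 1.47% of all genes tested. The median log2 change was 1.58, against -0.0023 over all genes tested, and was 1.63 in the Fadd line and 1.29 in the Casp8 line. Leaving out any 1 library gave medians of 1.28 to 1.73, the lowest without the Fadd/Mlkl KO library of replicate 1. Among the 50 genes of lowest p-value that were higher, 19 belonged to these lists, which make up 0.86% of the genes tested. Among the 50 lower ones there were 0.

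The size of this difference varied between cultures of 1 group. The median of the 141 genes, as log2 of CPM plus 0.5 over the restored mean of the line, was 2.231, 0.809 and 0.952 in Fadd/Mlkl KO libraries and -0.579, 0.196 and 0.363 in Fadd restored ones. It was 0.160, 1.298 and 1.141 in Casp8/Mlkl KO libraries and 0.139, -0.106 and -0.056 in Casp8 restored ones. Replicate 1 therefore had the widest gap between knockout and restored in the Fadd line and almost none in the Casp8 line. The Fadd/Mlkl KO library of replicate 1 was also the one with the lowest protein-coding share, and both Casp8-line libraries of replicate 1 stood apart in the principal component. Fadd restored replicate 1, with 85.7% of counts in protein-coding genes, was inside the range of the others on that measure. Its mitochondrial share was 1.24%, with 1.43% in Fadd/Mlkl KO replicate 1 and 1.21% in Casp8 restored replicate 1. The other libraries had 0.55% to 0.93%, Casp8/Mlkl KO replicate 1 among them at 0.83%. The part of library quality in the result was not tested. Without both replicate 1 libraries of the Fadd line the median was 1.12, and without both of the Casp8 line it was 1.80.

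**Figure D2:**
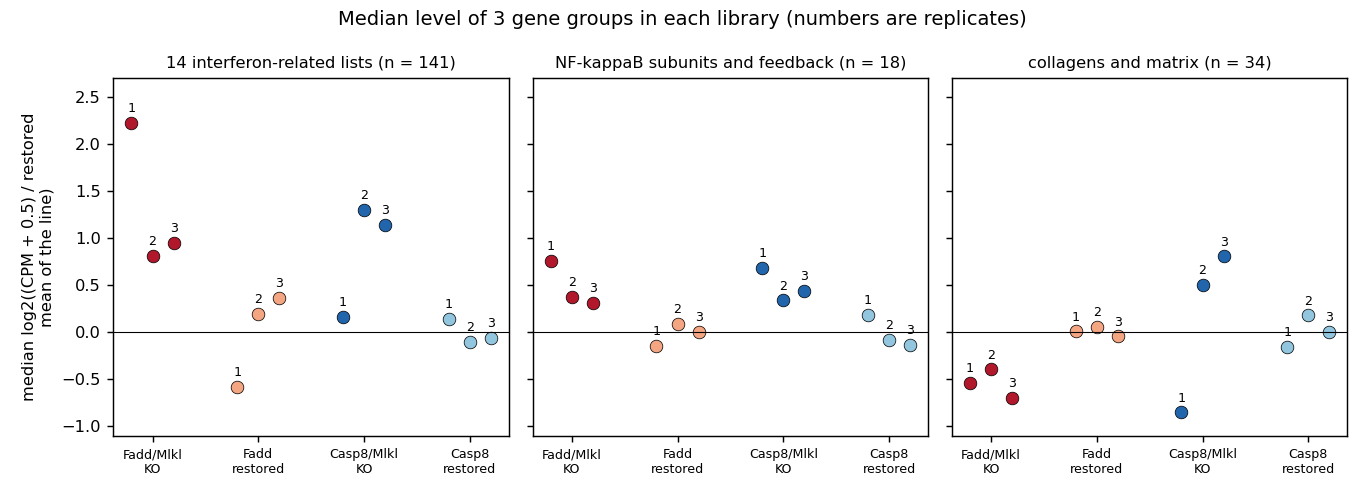
Median over the genes of 3 groups of log2 (CPM + 0.5) relative to the mean of the restored libraries of the same line, 1 point per library, numbered by replicate. For the 141 interferon-related genes the Fadd/Mlkl KO libraries lie at 2.231, 0.809 and 0.952 and the Casp8/Mlkl KO libraries at 0.160, 1.298 and 1.141. The median of the 18 NF-kappaB genes is 0.316 to 0.763 in the 6 KO libraries and -0.144 to 0.181 in the restored ones. The median of the 34 collagen and matrix genes is below 0 in the 3 Fadd/Mlkl KO libraries and at -0.852, 0.508 and 0.807 in the Casp8/Mlkl KO libraries.

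Among sensors of nucleic acid, Zbp1 (chromosome 2, 173206612 to 173218923) had 66.1, 7.28 and 13.0 CPM in Fadd/Mlkl KO libraries, against 0.235, 2.99 and 3.78 CPM with Fadd restored. It had 0.300, 0.874 and 1.20 CPM in Casp8/Mlkl KO libraries, against 0.136, 0.0179 and 0 CPM with Casp8 restored. All knockout libraries were above all restored ones of their line, although the Casp8/Mlkl KO levels were below 2 of the 3 Fadd restored levels. The log2 change was 3.71 (SE 0.82), with an adjusted p of 0.174 by edgeR and 1.36e-04 by DESeq2. It lay between 2.67 and 4.08 over the 23 alternative fits. An exact two-sided permutation test of this 1 gene within lines gave p = 0.005, the smallest that 400 arrangements allow. With labels swapped only within same-numbered pairs, an exact permutation test chosen after the data were seen gave p = 0.0312, the smallest that 64 arrangements allow, with the knockout higher in 6 of 6 pairs.

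The list of the 2'-5'-oligoadenylate synthetase family, named for enzymes that respond to double-stranded RNA, also holds 1 gene from outside the family. This list had the highest median of all, at 3.25 over 9 genes. Each of the 9 was above 0 in both lines, 8 had an unadjusted p under 0.05 and 6 separated the libraries upward in both lines, against 27.1%, 5.2% and 1.04% of all genes tested. Oasl1, a family member that in mouse restrains translation of Irf7, had 59.1, 13.5 and 13.2 CPM in Fadd/Mlkl KO libraries against 0.982, 2.58 and 2.02 CPM with Fadd restored. Casp8-line values were lower: it had 0.715, 0.897 and 0.761 CPM in KO libraries against 0.214, 0.0896 and 0.165 CPM in restored ones (log2 change 3.27, SE 0.52, adjusted p = 0.0788). Oas3 had 163, 20.9 and 30.4 CPM in Fadd/Mlkl KO libraries against 0.598, 3.40 and 6.43 CPM with Fadd restored. Casp8/Mlkl KO libraries had 0.230, 0.138 and 0.0878 CPM and the 3 Casp8 restored libraries had no reads. Both genes were lower in every Casp8/Mlkl KO library than in any Fadd/Mlkl KO library, and similar copies within the family may share reads. Of the other RNA sensors, Ddx58 (RIG-I) had a log2 change of 1.19 and its adaptor Mavs one of -0.04; edgeR called neither, and DESeq2 called Ddx58 (adjusted p = 0.0186).

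The transcription factors of the pathway were split. Over 11 tested IRF and STAT genes the median was 1.28, and 9 had an unadjusted p under 0.05 upward, against 5.2% of all genes tested. Irf7, the amplifier of type I interferon expression, had 450.2, 44.3 and 70.7 CPM in Fadd/Mlkl KO libraries against 13.96, 20.6 and 26.3 CPM with Fadd restored. In the Casp8 line it had 1.73, 13.0 and 9.22 CPM in KO libraries against 3.23, 0.627 and 0.844 CPM in restored ones, so that the groups overlapped there through replicate 1. Its log2 change was 2.80 (SE 0.68, adjusted p = 0.204). Irf9, a part of the interferon-activated complex, had a log2 change of 1.28. Irf3, the constitutively made factor downstream of the sensors, had -0.09. Interferons, their receptors and kinases had a median of 0.12 over the 9 of 14 genes tested, and the receptor gene Ifnar1 a change of -0.04. Ifnb1 did not pass the filter on low counts.

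Effectors downstream had medians above 0 as groups. None of these genes was called by edgeR. DESeq2 called 7 of 8 guanylate-binding proteins, 6 of 9 immunity-related GTPases, 14 of 23 antiviral effectors and 3 of 4 Schlafen genes higher. It also called 4 of 7 ISG15 conjugation genes, 4 of 7 genes of the PARP list and 2 of 10 IFIT and IFITM genes. Of all genes tested it called 1.47% higher. Guanylate-binding proteins, GTPases that attack pathogen membranes, had a median of 2.81 with all 8 tested genes above 0 in both lines. Immunity-related GTPases had a median of 2.11 over 9 genes. Among them Ifi47 had 139, 73.2 and 53.02 CPM in Fadd/Mlkl KO libraries against 4.10, 11.999 and 7.64 CPM with Fadd restored, and 5.30, 15.8 and 17.5 CPM in Casp8/Mlkl KO libraries against 3.99, 2.10 and 1.87 CPM with Casp8 restored. Its groups did not overlap in either line (log2 change 2.89, SE 0.43, adjusted p = 0.0788), but it lies inside the span of Olfr56, which had a log2 change of 3.41, so reads of the pair may not be told apart. Schlafen genes, some of which restrict translation and viral replication, had a median of 2.86 over the 4 of 8 tested, with 3.32 (SE 0.59) for Slfn8. Among 23 antiviral effectors the median was 2.38, and Rsad2, which codes for the antiviral enzyme viperin, had 3.89 (SE 0.80). ISG15 conjugation genes had a median of 1.85, with 2.39 for Isg15 itself and 3.00 for Usp18, the enzyme that removes ISG15. The interferon-inducible PARPs had a median of 1.08, led by Parp14 at 2.35, and the IFIT and IFITM genes one of 1.26.

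**Figure D3:**
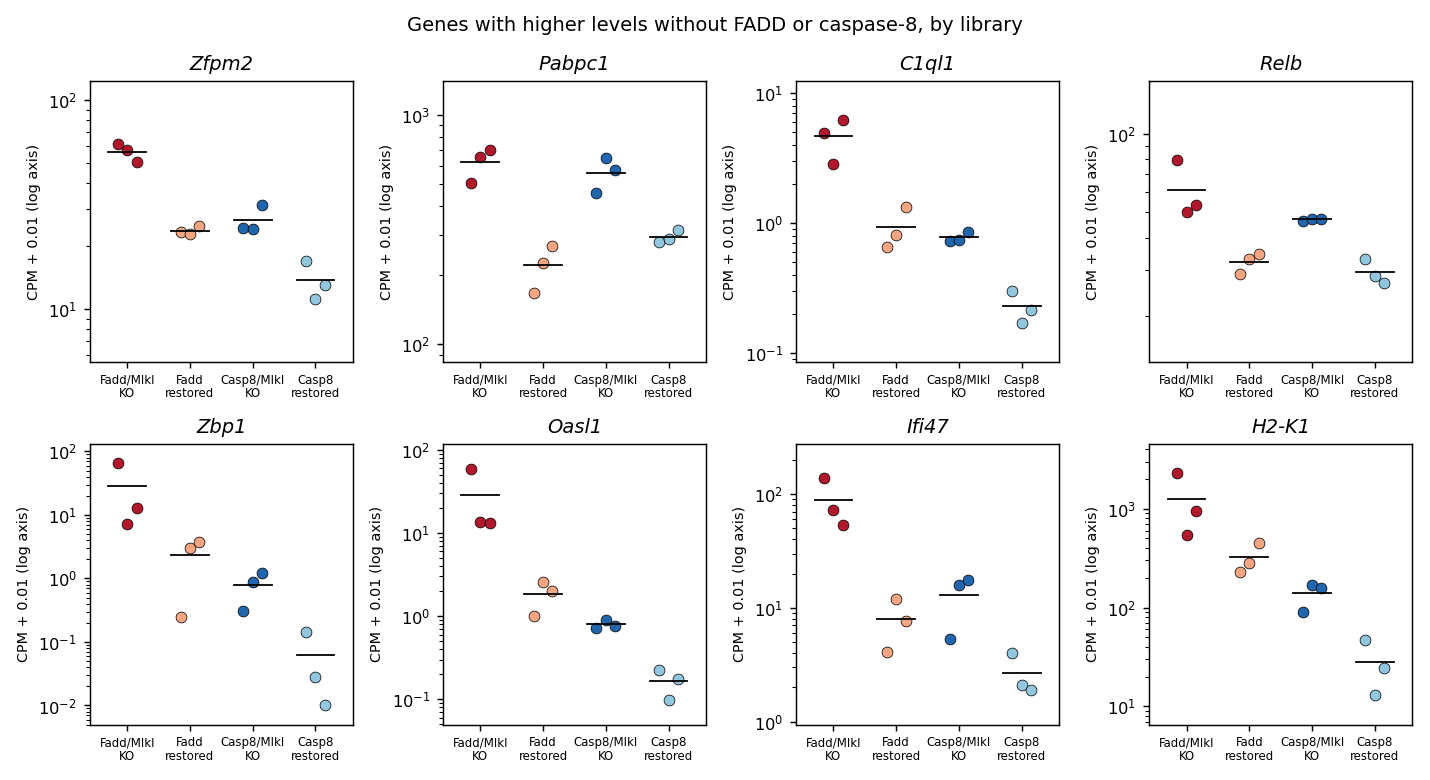
CPM plus 0.01 on a log axis for 8 genes that were higher without FADD or caspase-8, 1 point per library in the order of replicates, with the arithmetic mean of each group as a line. All 8 genes separate knockout from restored libraries in each line. Zbp1, Oasl1, Ifi47 and H2-K1, and also Zfpm2 and Relb, are highest in the Fadd/Mlkl KO library of replicate 1. For each gene but Pabpc1, the Casp8/Mlkl KO libraries lie below all Fadd/Mlkl KO ones.

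Antigen presentation genes had higher levels in the same libraries. None was called by edgeR. DESeq2 called 7 of 10 class I genes and 6 of 12 genes of the immunoproteasome and peptide loading higher, against 1.47% of all genes tested. H2-K1, Tap1 and Psmb8 were among them. MHC class I heavy chains and B2m had a median of 1.93 over 10 genes, all above 0 in both lines and 9 with an unadjusted p under 0.05 upward, against 27.1% and 5.2% of all genes tested. H2-K1, a classical class I heavy chain, had 2274, 543 and 944 CPM in Fadd/Mlkl KO libraries against 229.5, 285 and 455 CPM with Fadd restored. It had 89.8, 168 and 159.5 CPM in Casp8/Mlkl KO libraries against 46.8, 13.1 and 24.5 CPM with Casp8 restored. The groups were apart in both lines (log2 change 2.13, SE 0.39, adjusted p = 0.126), with the caveat that class I genes are similar in sequence and may share reads. Tap1, a peptide transporter subunit, had a log2 change of 1.97 and the immunoproteasome subunit Psmb8 one of 3.04. The chaperone genes of the same list, Calr and Canx, stayed near 0, at -0.04 and 0.01. Nlrc5, the transactivator of class I genes, had a log2 change of 2.77 (adjusted p = 0.191).

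Part of the interferon-list genes share a sequence feature. How many do is set by the choice of lists and not by the libraries. The element GAAA, any 2 bases, GAAA, a core form of the interferon-stimulated response element, was sought on both strands in RefSeq promoters of 300 bases (250 before and 50 after the start, GRCm38.p6). It was present in 51 of 112 interferon-list genes with an entry (45.5%), against 3.71% of the 10561 tested genes with an entry and 3.99% of all promoters in the table. Of the genes that separated the libraries upward in both lines, 17 of 110 held it (15.5%), but only 5 of 81 (6.17%) once the interferon lists were set aside. Among the upward genes inside those lists, 12 of 29 held it (41.4%), no higher a share than the 45.5% of the lists as a whole. Of the genes that separated downward, 2 of 60 held it (3.33%). The NF-kappaB form GGGAA, any base, TTCC was present in 2 of the 110 upward genes (1.82%), against 0.407% of all tested. With the interferon lists set aside it was in 1 of 81 (1.2%), and the lists as a whole held it in 3 of 112 (2.68%). The 4 examples with strong changes shown next were chosen because they hold the element. The promoters of Oasl1, Ifi47, H2-K1 and Tap1 held none. Shown are the 150 bases before the start, 5' to 3' on the minus strand, with the element or overlapping elements in capitals. In Rsad2 and Slfn8 it lies on the opposite strand. Isg15 (chr4:156200819-156200968) holds 3 overlapping copies 78 to 66 bases before the start, Oas3 (chr5:120777660-120777809) 1 at 75 bases, Rsad2 (chr12:26456453-26456602) 1 at 120 bases and Slfn8 (chr11:83020811-83020960) 1 at 48 bases. From another RefSeq start of Slfn8 the same element lies at 136 bases.
Isg15: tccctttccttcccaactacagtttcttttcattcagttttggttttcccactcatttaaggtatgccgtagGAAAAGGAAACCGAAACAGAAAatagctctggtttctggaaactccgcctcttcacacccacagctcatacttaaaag
Oas3: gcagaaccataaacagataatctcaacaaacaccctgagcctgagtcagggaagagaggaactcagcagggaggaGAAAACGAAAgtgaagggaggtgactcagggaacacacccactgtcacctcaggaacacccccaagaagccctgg
Rsad2: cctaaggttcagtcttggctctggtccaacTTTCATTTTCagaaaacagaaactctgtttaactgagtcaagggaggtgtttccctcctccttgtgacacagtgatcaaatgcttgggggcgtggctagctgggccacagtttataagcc
Slfn8: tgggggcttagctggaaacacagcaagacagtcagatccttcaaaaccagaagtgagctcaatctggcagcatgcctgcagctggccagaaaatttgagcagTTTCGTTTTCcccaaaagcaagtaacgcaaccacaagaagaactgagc

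The list of NF-kappaB subunits and feedback genes was smaller in size but evenly placed. Of its 18 genes 17 were above 0, 15 were above 0 in both lines and 10 had an unadjusted p under 0.05 upward, against 49.7%, 27.1% and 5.2% of all genes tested. Its median was 0.60, with 0.56 in the Fadd line and 0.52 in the Casp8 line. Relb, the subunit of the alternative NF-kappaB pathway, had 79.4, 50.1 and 53.2 CPM in Fadd/Mlkl KO libraries against 29.0, 33.1 and 34.7 CPM with Fadd restored. It had 46.5, 47.1 and 47.2 CPM in Casp8/Mlkl KO libraries against 33.0, 28.5 and 26.8 CPM with Casp8 restored. All 6 knockout libraries lay above all 6 restored ones, across the lines as well (log2 change 0.80, SE 0.13, adjusted p = 0.0788). Tnip1, an inhibitor of the pathway that is itself induced by it, had a log2 change of 0.57, Nfkb2 one of 0.62 and Nfkb1 one of 0.33, while Rela had 0.09. Per library, the median of the 18 genes over the restored mean was above 0 in each of the 6 knockout cultures, at 0.316 to 0.763. In restored cultures it was -0.144 to 0.181, and above 0 in some of them.

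Secreted signals were also mostly higher. Of 14 tested chemokine and cytokine genes 13 were above 0 in both lines and 10 had an unadjusted p under 0.05 upward, against 27.1% and 5.2% of all genes tested, and the median was 1.47. Cxcl10, a chemokine for T cells, had 310.3, 229 and 132 CPM in Fadd/Mlkl KO libraries against 19.6, 103 and 64.3 CPM with Fadd restored, and 26.9, 32.2 and 33.0 CPM in Casp8/Mlkl KO libraries against 13.8, 11.6 and 17.2 CPM with Casp8 restored. Ccl5 had a log2 change of 1.72 and the cytokine Lif one of 0.99, and the libraries of all 3 genes were apart in both lines. Cxcl12 was the exception, at -0.82.

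**Figure D4:**
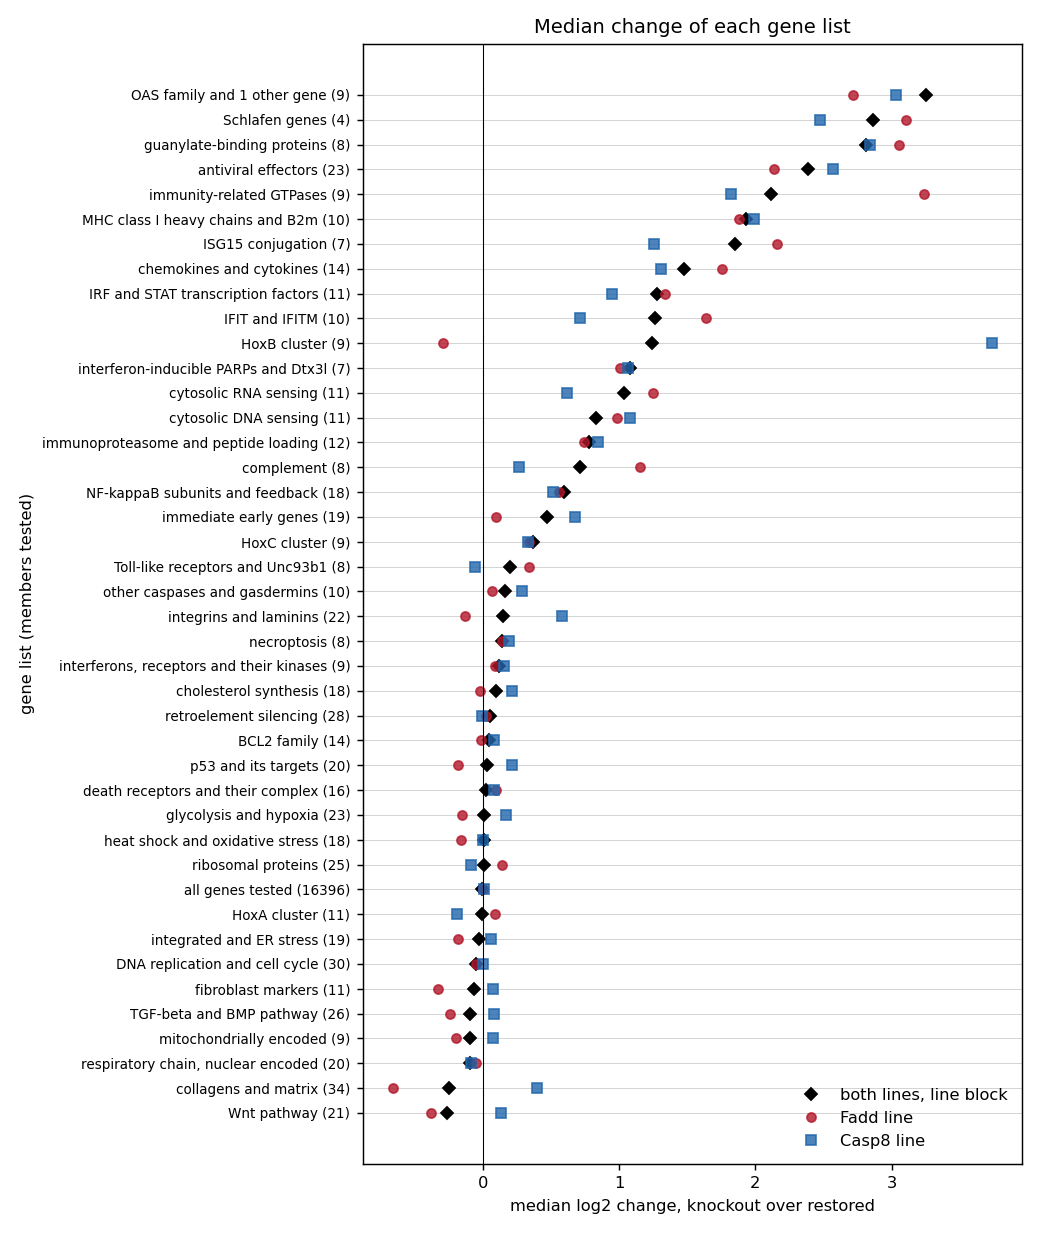
Median log2 change, knockout over restored, of each gene list with at least 3 tested genes, and of all genes tested. Cell type marker lists other than the fibroblast one are not drawn. Both lines together are black diamonds, the Fadd line red circles and the Casp8 line blue squares. Within a line, genes with no reads in a group enter at the bound set by 3 counts. Interferon-related lists reach medians of up to 3.25, BCL2 family, ribosomal and cell cycle lists lie at 0.04, 0.01 and -0.05, and the HoxB cluster differs between the lines (-0.29 and 3.74).

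Genes of the cell death machinery itself showed few common differences. Ripk3 had 44.3, 62.8 and 60.9 CPM in Fadd/Mlkl KO libraries against 42.9, 55.9 and 52.5 CPM with Fadd restored, groups that overlap. It had 65.2, 56.5 and 50.6 CPM in Casp8/Mlkl KO libraries against 10.7, 35.7 and 31.5 CPM with Casp8 restored, which do not (shared log2 change 0.65, adjusted p = 0.568). Ripk1 had a log2 change of 0.15 (SE 0.10) and Cflar, the caspase-8-like regulator, one of 0.14. Mlkl, deleted in all groups, still had 3.69 to 11.8 CPM in knockout and 5.27 to 15.9 CPM in restored libraries, with a change of -0.04 (SE 0.29), so counts over the whole gene do not check that deletion. Casp4, in mouse the caspase-11 gene that senses bacterial lipopolysaccharide, had 11.3, 5.90 and 8.41 CPM in Fadd/Mlkl KO libraries against 0.342, 2.17 and 3.08 CPM with Fadd restored. In the Casp8 line it had 0.738, 0.713 and 1.61 CPM in KO libraries against 0.369, 0.0179 and 0.103 CPM in restored ones, apart in both lines (log2 change 2.38, adjusted p = 0.207). The 14 tested BCL2 family genes had a median of 0.04. None had an unadjusted p under 0.05, against 5.2% higher and 3.01% lower among all genes tested. With 14 genes, none cannot be told apart from those shares.

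On the lower side no gene was called by edgeR, and the differences of lowest p-value were modest. Lgr4, a receptor for R-spondins (chromosome 2, 109917647 to 110014257), had 21.9, 30.6 and 27.2 CPM in Fadd/Mlkl KO libraries against 46.8, 48.2 and 38.7 CPM with Fadd restored. It had 43.3, 36.2 and 46.4 CPM in Casp8/Mlkl KO libraries against 59.0, 104 and 89.9 CPM with Casp8 restored. The groups were apart in both lines (log2 change -0.88, SE 0.15, adjusted p = 0.107). Pde4b, a phosphodiesterase that degrades cAMP, had 11.96, 11.98 and 9.61 CPM in Fadd/Mlkl KO libraries against 22.4, 15.9 and 20.4 CPM with Fadd restored, and 21.8, 21.7 and 19.9 CPM in Casp8/Mlkl KO libraries against 36.6, 30.01 and 29.3 CPM with Casp8 restored. Its groups did not overlap either (log2 change -0.70, adjusted p = 0.107). Ptprk, a receptor tyrosine phosphatase, had a log2 change of -0.68, with no overlap in either line.

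Of the genes that separated downward in both lines, 7 were at least 2-fold lower, none called by edgeR. Scn3a, a neuronal sodium channel gene and 1 of the 7, had a log2 change of -2.79 (adjusted p = 0.16) at 0.0703 to 0.439 CPM in knockout and 0.337 to 8.75 CPM in restored libraries. Cdh2, which codes for N-cadherin, had 5.16, 5.93 and 7.29 CPM in Fadd/Mlkl KO libraries against 52.4, 66.3 and 82.0 CPM with Fadd restored. In the Casp8 line it had 241, 254 and 241 CPM in KO libraries against 171, 728 and 637 CPM in restored ones, where replicate 1 of the restored group lay below all KO libraries. Its shared change of -2.24 (adjusted p = 0.168) thus had -3.45 in the Fadd line and -1.06 in the Casp8 line.

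**Figure D5:**
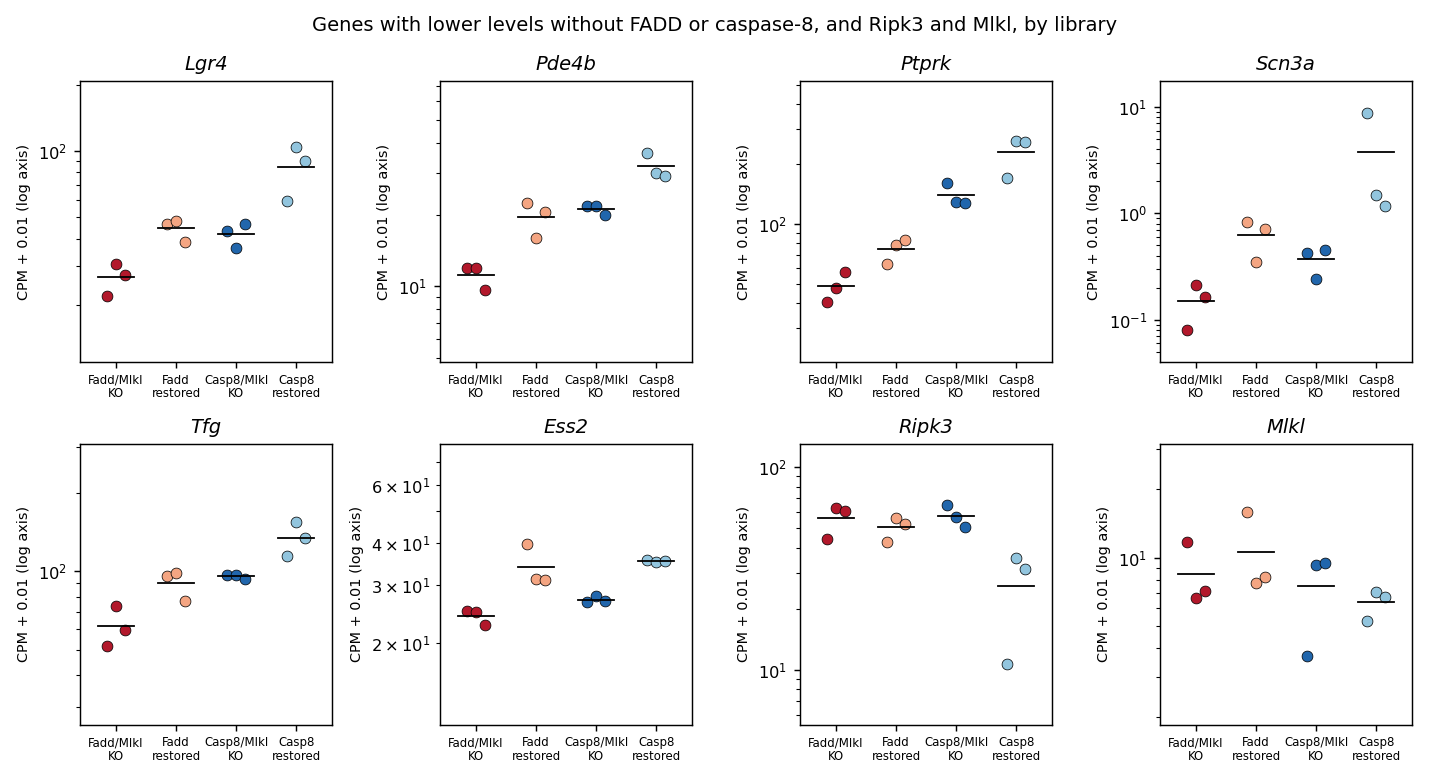
CPM plus 0.01 on a log axis for 6 genes that were lower without FADD or caspase-8 and for Ripk3 and Mlkl, 1 point per library in the order of replicates, with the arithmetic mean of each group as a line. The 6 lower genes separate knockout from restored libraries in each line, Ripk3 does so in the Casp8 line alone and Mlkl in neither.

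Compared library by library, 170 genes (1.04% of those tested) had all 3 knockout libraries above all 3 restored ones in both lines, and 80 (0.488%) had them below in both. Another 175 (1.07%) separated in opposite directions. Within 1 line, 1278 genes (7.79%) separated upward in the Fadd line and 947 (5.78%) in the Casp8 line, and 1433 (8.74%) and 805 (4.91%) downward. The 170 higher genes had a median log2 change of 1.04, and 91 of them differed at least 2-fold. The 80 lower genes had a median of -0.38, and 7 differed at least 2-fold. Of the higher genes 38 belonged to interferon-related lists, where the median was 2.90, and of the lower genes 0 did. A gene that falls outside the rule for named genes below was chosen after its values were seen.

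Genes outside the interferon lists that separated upward in both lines had varied roles. Gcnt4, a glycosyltransferase that builds branched O-glycans, had 47.3, 30.8 and 54.05 CPM in Fadd/Mlkl KO libraries against 24.8, 12.6 and 30.7 CPM with Fadd restored. It had 20.5, 16.4 and 14.4 CPM in Casp8/Mlkl KO libraries against 7.80, 7.98 and 7.78 CPM with Casp8 restored. The groups were just apart in the Fadd line and well apart in the Casp8 line (log2 change 1.04, adjusted p = 0.153). Ccnd2, a D-type cyclin, had 34.4, 134 and 104 CPM in Fadd/Mlkl KO libraries against 13.1, 19.97 and 14.02 CPM with Fadd restored, and 64.2, 138 and 102 CPM in Casp8/Mlkl KO libraries against 6.47, 62.2 and 48.1 CPM with Casp8 restored. Its log2 change was 1.96 (adjusted p = 0.221), with 1 of the Casp8 restored libraries far below the others. Lef1, a transcription factor of the Wnt pathway, had a log2 change of 1.91 (adjusted p = 0.148), but its Fadd groups overlapped.

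Genes that separated downward in both lines were unevenly placed on the chromosomes. Chromosome 16 held 22 of the 80 (27.5%), with 2.99% of the genes tested, and 1 of the 170 higher genes. Its 355 genes with a mean of at least 4 CPM had a median shared log2 change of -0.21, the lowest of any chromosome. The median was -0.28 in the Fadd line and -0.13 in the Casp8 line. Chromosome 5 was slightly lower in the Casp8 line, at -0.14, but at 0.08 in the Fadd line. Of the 355 genes on chromosome 16, 65.1% were below 0 in both lines, against 29.6% of all genes at that level. As medians over the restored mean, chromosome 16 genes lay at -0.362, -0.203 and -0.242 in Fadd/Mlkl KO libraries and 0.008, 0.027 and 0.010 in Fadd restored ones. They lay at -0.164, -0.073 and -0.134 in Casp8/Mlkl KO libraries and -0.067, 0.060 and 0.005 in Casp8 restored ones, so that the knockout libraries were lower in each line. Tfg, which acts in export from the endoplasmic reticulum, and Ess2 are on chromosome 16, with log2 changes of -0.52 and -0.44. Chromosome 2 held 13 of the 80 (16.3%), with 7.48% of the genes tested.

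Among the 170 higher genes, chromosome 17, which carries the MHC, held 16 (9.41%), with 4.82% of the genes tested, and chromosome 15 held 14 (8.24%), with 3.95%. Zfpm2 and Pabpc1 lie in a stretch of chromosome 15 from 30 to 60 Mb, chosen after its values were seen, where 82 genes had a mean of at least 4 CPM. Their median log2 change was 0.48 in the Fadd line and 0.06 in the Casp8 line. The genes around Zfpm2 thus also had a median above 0 in the Fadd line. Gene copy number was not tested on chromosome 15 or 16.

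Several lists were near 0 or differed between the lines. The 25 tested ribosomal protein genes had a median of 0.01, the 20 p53 targets 0.03, the 19 genes of the endoplasmic reticulum stress response -0.03 and the 30 cell cycle genes -0.05. With genes without reads entered at their bound, collagen and matrix genes had a median of -0.66 in the Fadd line and 0.40 in the Casp8 line. By library, however, their median over the restored mean was -0.852, 0.508 and 0.807 in Casp8/Mlkl KO libraries, so that replicate 1 lay below all 3 Fadd/Mlkl KO libraries. Col1a2, a chain of type I collagen, had 0.966, 2.06 and 0.635 CPM in Fadd/Mlkl KO libraries against 394, 260.4 and 113 CPM with Fadd restored. In the Casp8 line it had 1688, 5367 and 5909 CPM in KO libraries against 6283, 3378 and 2806 CPM in restored ones, which overlap. The 9 tested HoxB genes, which set position along the body axis, had a median of 1.24 that rested on 1 library: without the Casp8/Mlkl KO library of replicate 1 it was -0.20. Hoxb9 had 14.2, 0.115 and 0.146 CPM in Casp8/Mlkl KO libraries against 0.603, 0 and 0.0206 CPM with Casp8 restored. The immediate early genes had a median of 0.47, which was -0.11 without the Fadd/Mlkl KO library of replicate 1.

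The lines agreed little over the transcriptome as a whole. Across the 16396 genes, which are not independent, Pearson's r between the changes of the lines was 0.0146. Over the 11048 genes with a mean of at least 4 CPM, r was 0.107. Fitted changes were below 0 in both lines for 25.4% of genes and of opposite sign for 47%, and 138 genes (0.842%) were called for a difference between the lines. Within the Fadd line 47 genes were called higher (0.287%) and 203 lower (1.24%), and within the Casp8 line 0 and 1 (0.0061%). The 1 gene called in the Casp8 line was the target Casp8 itself (edgeR adjusted p = 0.0037), and Fadd was among the 203. Of the 50 genes most clearly higher in the Fadd line, 54% were above 0 in the Casp8 line, against 51% of all genes. Their median there was 0.054, and 10 separated upward (20%, against 5.78% of all genes). Of the 50 most clearly higher in the Casp8 line, 52% were above 0 in the Fadd line, against 50.5%. Their median there was 0.045, and 12 separated upward (24%, against 7.79%). Of the 50 most clearly lower in the Fadd line, 22% were below 0 in the Casp8 line, against 48.9% of all genes. Their median there was 0.45, and 1 separated downward (2%, against 4.91%). Of the 50 most clearly lower in the Casp8 line, 58% were below 0 in the Fadd line, against 49.5%. Their median there was -0.03, and 6 separated downward (12%, against 8.74%).

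Markers bear on which cells were sampled, and in bulk RNA fewer cells of a type and less RNA per cell cannot be told apart. Of 14 fibroblast markers 11 passed the filter on low counts and Fap, Lum and Thy1 did not. Their summed level was 2062 to 3202 CPM in Fadd/Mlkl KO libraries and 3148 to 4904 CPM in Fadd restored ones, and 6193 to 15730 CPM in Casp8/Mlkl KO libraries and 8918 to 14380 CPM in Casp8 restored ones. Leukocyte markers, 3 of 14 tested, summed to 1.87 to 4.18 CPM in Fadd/Mlkl KO libraries and 2.26 to 3.98 CPM in Fadd restored ones. They summed to 1.39 to 2.64 CPM in Casp8/Mlkl KO libraries and 1.38 to 1.63 CPM in Casp8 restored ones, with Cd3e, Cd4 and Cd8a at 0 throughout. Endothelial markers, 2 of 8 tested and Sox17 at 0, stayed at or below 3.86 CPM in every library. Epithelial markers, 3 of 10 tested with Cldn4 and Krt5 at 0, summed to 1.07 to 5.21 CPM in Fadd/Mlkl KO libraries and 6.09 to 36.9 CPM in Fadd restored ones, which do not overlap. They summed to 4.16 to 14.7 CPM in Casp8/Mlkl KO libraries and 3.22 to 5.17 CPM in Casp8 restored ones, which do. Muscle markers, 3 of 9 tested, summed to 4.08 to 5.77 CPM in Fadd/Mlkl KO libraries and 2.03 to 3.88 CPM in Fadd restored ones, and to 2.22 to 3.02 CPM in Casp8/Mlkl KO libraries and 1.49 to 2.56 CPM in Casp8 restored ones. Neural markers, 5 of 11 tested with Olig2, Rbfox3 and Snap25 at 0, summed to 183 to 595 CPM in knockout and 165 to 712 CPM in restored libraries. Adipocyte and cartilage markers, 8 of 11 tested, summed to 21.8 to 63.8 CPM in knockout and 19.7 to 58.1 CPM in restored libraries. The part of these markers in the results was not tested.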

How the data were processed

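Total RNA was sequenced on a stranded kit in paired reads of 100 cycles, and the submitters' processing notes name Trim Galore 0.5.0 with Cutadapt for trimming, STAR 2.7.5a for alignment to mm10, and RSEM with GENCODE M22 for quantification. The deposited tables hold expected counts per gene, estimated by the authors with RSEM and not normalized; 96.05% of those above 0 were whole. Expected counts were rounded, 92 spike-in entries with 0 counts were left out, and 16396 of 55573 genes passed filterByExpr (minimum count 10). The comparison used edgeR 4.0.16 in R 4.3.3 (TMM, glmQLFit and glmQLFTest, line as a block) with Benjamini-Hochberg adjustment over all genes tested and a threshold of 0.05. Changes within lines and their difference came from 4 group means. DESeq2 1.42.0, limma-voom (limma 3.58.1), other scalings and filters, replicate blocks and left-out libraries were alternatives. Same-numbered cultures of a line deviated together (correlations 0.622, 0.331 and 0.584 in the Fadd line, 0.213, 0.290 and 0.130 in the Casp8 line). The main fit did not use this pairing, so its standard errors and p-values treat the cultures of a line as unpaired. Replicate numbers were taken to pair cultures only in the alternative with a replicate block within line and in the later permutation of Zbp1. Zbp1 was also tested by permuting log2 (CPM + 0.5) within lines and, added later, within same-numbered pairs. A difference was called a separation where all 3 knockout libraries lay on 1 side of all 3 restored ones.

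The genes named are the targets and the necroptosis genes Mlkl, Zbp1, Ripk1 and Ripk3, then the called protein-coding genes with the same sign in both lines and, where fewer than 12 a direction were called, the genes of lowest p up to 12, and called members of lists. Other genes named were chosen after their values were seen. The comparison and the gene lists were chosen with earlier results of these data known, so the lists carry no p-values. Positions were read by gene ID from GENCODE M21 on mm10. The fits were tested on simulated data. Counts are not independent molecules, and libraries held 33918359 to 59388559 counts.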

Additional observations from a re-analysis of the deposited data

Results flagged for a closer look

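The 2 targeted genes were marked because their change differed between the lines by a test of the difference itself. Fadd had a Fadd-line minus Casp8-line log2 change of -7.94 (edgeR adjusted p = 4.83e-05), with 0.176, 0.0364 and 0.0876 CPM in Fadd/Mlkl KO libraries, against 26.1, 19.1 and 25.7 CPM with Fadd restored. Casp8 had a difference of 3.45 (edgeR adjusted p = 2.83e-03), with 12.4, 11.3 and 10.4 CPM in Casp8/Mlkl KO libraries, against 67.6, 172 and 182 CPM with Casp8 restored. Each target was low in its own knockout, and each had a change near 0 in the other line, at 0.11 for Fadd in the Casp8 line and -0.18 for Casp8 in the Fadd line.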

How the results depend on the processing

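The number of genes called depended strongly on the model. Against 1 higher and 0 lower genes, the average of the within-line changes gave 28 and 61, DESeq2 241 and 73, and a replicate block over all libraries or within line 0 and 0. With other scalings edgeR called 2 higher (DESeq2 size factors or upper-quartile factors), with no filter 18 and with a mean of at least 1 CPM 3, each with 0 lower. Without both replicate 1 libraries of the Casp8 line there were 28 higher and 6 lower. Leaving out 1 library gave 0 to 12 higher and 0 to 2 lower; without the Casp8/Mlkl KO library of replicate 1 there were 12 and 2, and without the Casp8 restored one 6 and 1. The causes were not tested.

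The log2 change of Zbp1 was 3.79 with DESeq2, where it passed the threshold (adjusted p = 1.36e-04), 3.59 and 3.33 with a replicate block over all libraries and within line, where it did not, and 2.90 to 4.08 with 1 library left out. The change of Mlkl, -0.04, crossed 0: it was 0.0528 without both replicate 1 libraries of the Fadd line and -0.164 to 0.174 with 1 library left out. There were 3 cultures a group.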
